A study of Mus musculus with 14 samples.

Results

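The genes described here are the 10 iron and heme handling genes SLC40A1, HMOX1, BLVRB, FTH1, FTL1, TFRC, SLC11A1, SLC11A2, CP and CD163, taken by name from the 24982 genes of a mouse RNA-sequencing count table. All 10 were found in the table, and all 10 were among the 13136 genes that passed the filter on low counts. The symbols are printed in capitals, as the table gives them.

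The libraries were made from macrophages sorted from the lamina propria of the colon and cecum of 5-week-old C57BL/6 mice. The sort took live CD45+ cells that lacked Ly6G, CD103 and Ly6C and carried CD64, CD11b and MHCII. All mice carried Cdcs1, a locus that raises susceptibility to colitis. WT mice carried Cdcs1 alone and were mice 4, 5, 10 and 13. IL10RAKO mice also lacked the interleukin-10 receptor alpha chain (Il10ra -/-) and were mice 1, 2, 7 and 8. DKO mice lacked both Il10ra and the chemokine receptor Ccr2 (Il10ra -/-, Ccr2 -/-) and were mice 3, 9, 12 and 14. The deletions were carried in the whole animal, so every cell type of a knockout mouse lacked the receptor. WT mouse 11 and the CCR2KO mouse 6 (Ccr2 -/- without the Il10ra deletion) were left out of the main tests, because the authors' second table includes neither and CCR2KO had 1 mouse. Their values are given as descriptions, and mouse 11 entered the WT group in 1 alternative fit. The sex, litter and sorting day of each mouse are not in the labels, so their part in any difference could not be tested.

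The libraries held 13085287 to 21024878 counted reads in WT, between 15473135 and 20347283 in IL10RAKO mice and 14054105 to 21216468 in DKO mice. Levels are in CPM, that is the reads of a gene relative to all reads of its library, after TMM scaling, which corrects for differences in library composition. In these 12 libraries 3 reads corresponded to 0.124 to 0.211 CPM. The targeted genes were as the labels say. IL10RA, the receptor chain itself, averaged 284 ± 70.1 CPM in WT, 7.41 ± 2.67 in IL10RAKO mice and 5.31 ± 2.12 in DKO mice (SD, n = 4 each). CCR2 averaged 593 ± 80.0 CPM in WT, 476 ± 128 in IL10RAKO mice and 5.67 ± 1.22 in DKO mice. All 10 genes of a list of macrophage markers were present, and the most abundant was the MHC class II gene H2-AB1. This list moved with genotype as well. Against WT, FCGR1, H2-AB1 and AIF1 were higher in IL10RAKO, and MERTK was higher and ADGRE1 lower in DKO (log2 fold change 0.98, adjusted p = 0.0386, and -1.05, adjusted p = 0.0238, by edgeR). The part of these differences in those of the 10 genes was not tested.

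Iron enters macrophages bound to transferrin through the transferrin receptor (TFRC), and inside hemoglobin, which the scavenger receptor CD163 takes up in complex with haptoglobin. Heme is opened by heme oxygenase 1 (HMOX1), which frees the iron, and yields biliverdin, which is reduced mainly by BLVRA. The related enzyme BLVRB reduces other biliverdin isomers and flavins. Ferrous iron is moved across the phagosomal membrane by SLC11A1 and out of endosomes by SLC11A2. Iron is then stored in ferritin, a shell of FTH1 and FTL1 subunits, or leaves the cell through ferroportin (SLC40A1), and the copper protein ceruloplasmin (CP) oxidizes iron for loading onto transferrin. Macrophages that clear old red blood cells use this set of genes to return iron to the circulation.

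Several of these transcripts carry an iron responsive element, a short hairpin bound by the iron regulatory proteins ACO1 and IREB2 when iron is low. Binding in the 5′ UTR holds back translation, and binding in the 3′ UTR protects the transcript from decay. The elements are shown because they divide the genes into those whose transcript number the hairpin is known to protect (TFRC) and those for which it is known to act on translation, which transcript counts do not measure (FTH1, FTL1 and SLC40A1). The UTRs of the annotated transcripts (GENCODE vM21, mouse build mm10) were searched on the transcript strand for the letters CNNNNNCAGTGN, with a last base other than G and with the 5 bases on each side of the loop able to pair, G with T included. Capitals mark the 6 bases of the loop.
FTH1, 5′ UTR, chr19:9982732-9982761, plus strand: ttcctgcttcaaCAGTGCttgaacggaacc
FTL1, 5′ UTR, chr7:45459778-45459807, minus strand: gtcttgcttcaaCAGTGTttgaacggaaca
SLC40A1, 5′ UTR, chr1:45925464-45925493, minus strand: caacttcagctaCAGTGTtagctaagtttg
TFRC, 3′ UTR, chr16:32631219-32631248, plus strand: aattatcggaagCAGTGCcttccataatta
TFRC, 3′ UTR, chr16:32631598-32631627, plus strand: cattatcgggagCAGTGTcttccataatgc
TFRC, 3′ UTR, chr16:32631663-32631692, plus strand: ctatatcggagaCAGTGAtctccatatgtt
TFRC, 3′ UTR, chr16:32631710-32631739, plus strand: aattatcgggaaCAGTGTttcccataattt
Among 21732 protein-coding genes, 0.0966% held such a match in a 5′ UTR and 0.451% in a 3′ UTR. The other 6 genes, SLC11A2 among them, had 0 matches, which says only that these letters with this pairing were not in their annotated UTRs.

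The first comparison asked how macrophages without IL-10 receptor signalling differed from WT macrophages. In IL10RAKO mice FTH1 was 2.57-fold higher and SLC11A1 1.61-fold higher than in WT, whereas CD163 was 25.4-fold lower, a size that depended on 1 mouse as given with its values, and SLC40A1 4.28-fold lower. HMOX1, BLVRB, FTL1, TFRC, SLC11A2 and CP did not pass the test. Thus 4 of the 10 genes passed (2 higher and 2 lower), against a background of 15.8% of all genes tested (8.70% higher and 7.10% lower). The median log2 fold change was -0.01 over the 10 genes and -0.07 over all 13136 genes. The groups did not overlap for 5 of the 10 genes, against 18.2% of all genes. Of the genes called, 55.1% were higher, a share that fell to 23.8% when libraries were scaled by their totals without TMM. Tests were edgeR's quasi-likelihood test over the 12 libraries with Benjamini-Hochberg adjustment over all 13136 genes, here and below.

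The second comparison set macrophages without both receptors against the same 4 WT mice. In DKO mice FTH1, SLC11A1 and BLVRB passed as higher and SLC40A1 and CD163 as lower, that is 5 of the 10 genes against a background of 18.5% (9.23% higher and 9.22% lower). The fold was 2.69 for FTH1, 1.47 for SLC11A1 and 1.54 for BLVRB, and CD163 was 67.4-fold and SLC40A1 2.87-fold lower. The median log2 fold change was 0.03 over the 10 genes and -0.06 over all genes, and the groups did not overlap for 5 of the 10 genes against 22.2% of all genes. The share of calls that were higher was 50.0%, and 25.9% with library totals. Since both knockouts were compared with the same WT mice, the 2 sets of fold changes are not independent.

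The third comparison asked whether loss of CCR2 changed the levels in mice that already lacked IL10RA. In DKO against IL10RAKO 0 of the 10 genes passed edgeR's test, against a background of 0.0457% (6 genes). At an unadjusted p under 0.05 the count was 1 of 10 (CD163), against 2.95% of all genes, and DESeq2 called 0 of 10. The 95% confidence intervals of the log2 fold changes were narrow for FTL1 (-0.26 to 0.36) and SLC11A1 (-0.50 to 0.22) and wide for SLC40A1 (-0.34 to 1.49), CP (-0.34 to 1.24) and CD163 (-2.56 to -0.26).

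**Figure D1:**
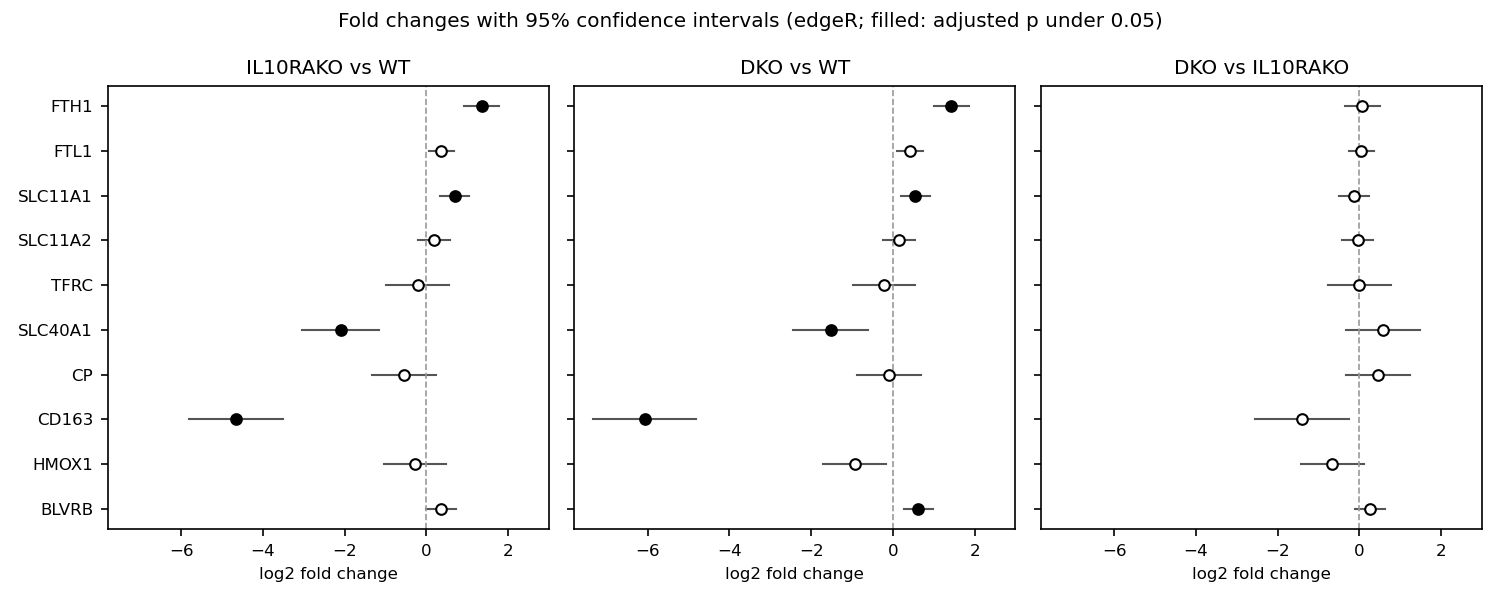
Log2 fold change (x axis) of each of the 10 genes (y axis) in the 3 comparisons, as points with 95% confidence intervals from edgeR. Filled points have an adjusted p under 0.05. CD163 lies farthest from 0 against WT, at -4.66 in IL10RAKO and -6.08 in DKO, FTH1 lies at 1.36 and 1.43, and no point is filled in DKO against IL10RAKO.

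FTH1, the ferritin heavy chain, which oxidizes iron as it enters the shell, had the highest level of the 10 genes in CPM and per kb of main transcript, though not in WT per kb of all annotated exons, as given below. It measured 7065, 7238, 8559 and 7782 CPM in WT mice 4, 5, 10 and 13. In IL10RAKO mice 1, 2, 7 and 8 it measured 15661, 24229, 13145 and 25580 CPM, and in DKO mice 3, 9, 12 and 14 it measured 20616, 21991, 19948 and 19954 CPM. All 8 knockout mice lay above all WT mice. The IL10RAKO mice were spread, with mice 2 and 8 above every DKO mouse and mice 1 and 7 below, while the DKO mice lay close together. The log2 fold change was 1.36 (SE 0.201, adjusted p = 3.56e-04 by edgeR) in IL10RAKO and 1.43 (SE 0.201, adjusted p = 2.08e-04) in DKO. In bulk samples, fewer cells of a type and less RNA per cell cannot be told apart, which applies to this and each later level.

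FTL1, the ferritin light chain, which promotes mineralization of the iron core, moved less. Its levels were 4357, 3607, 3747 and 4136 CPM in the WT mice in the order above. They were 4946, 4933, 4494 and 6072 CPM in IL10RAKO mice and 5140, 5932, 4707 and 5373 CPM in DKO mice. All 8 knockout mice again lay above all WT mice, but the log2 fold changes of 0.37 (SE 0.145, adjusted p = 0.105) and 0.42 (SE 0.145, adjusted p = 0.0600) did not pass edgeR's test. DESeq2 called FTL1 in both (adjusted p = 0.0459 and 0.0147). As a share of all counted reads of a library, without TMM scaling, FTL1 was 0.451% ± 0.0271 in WT, 0.466% ± 0.0351 in IL10RAKO mice and 0.505% ± 0.0222 in DKO mice (SD, n = 4 each). FTH1 alone was 0.874% ± 0.0894 of the reads in WT, 1.78% ± 0.484 in IL10RAKO mice and 1.97% ± 0.0525 in DKO mice.

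The ratio of the 2 chains was higher in both knockouts. Per length of the main coding transcript, the ratio of FTH1 to FTL1 was 2.03 ± 0.287 in WT, 3.96 ± 0.965 in IL10RAKO mice and 4.08 ± 0.267 in DKO mice (SD, n = 4 each). The highest WT ratio was 2.38 and the lowest IL10RAKO ratio 3.05, so the groups did not overlap. A two-sided exact permutation test gave p = 0.0286 for each knockout against WT, the smallest that 4 against 4 mice allow, and 0.0429 after adjustment over the 3 comparisons. Any 2 groups of 4 mice without overlap give this p, so it adds nothing to the absence of overlap. With the length of all annotated exons in place of the main transcript the means were 0.753, 1.47 and 1.51, so that which chain is the more abundant in WT depended on the length used, whereas the order of the groups did not. WT mouse 11 had a ratio of 2.23 and the CCR2KO mouse 1.88, near the WT values. Ferritin has near-identical processed copies in the mouse genome. The annotated copies Fth-ps2, Fth-ps3, Ftl1-ps1, Ftl1-ps2 and Ftl2-ps are not listed in the count table, and how reads that match several places were counted is not given in the sources used here, so the ferritin levels are uncertain to that extent.

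**Figure D2:**
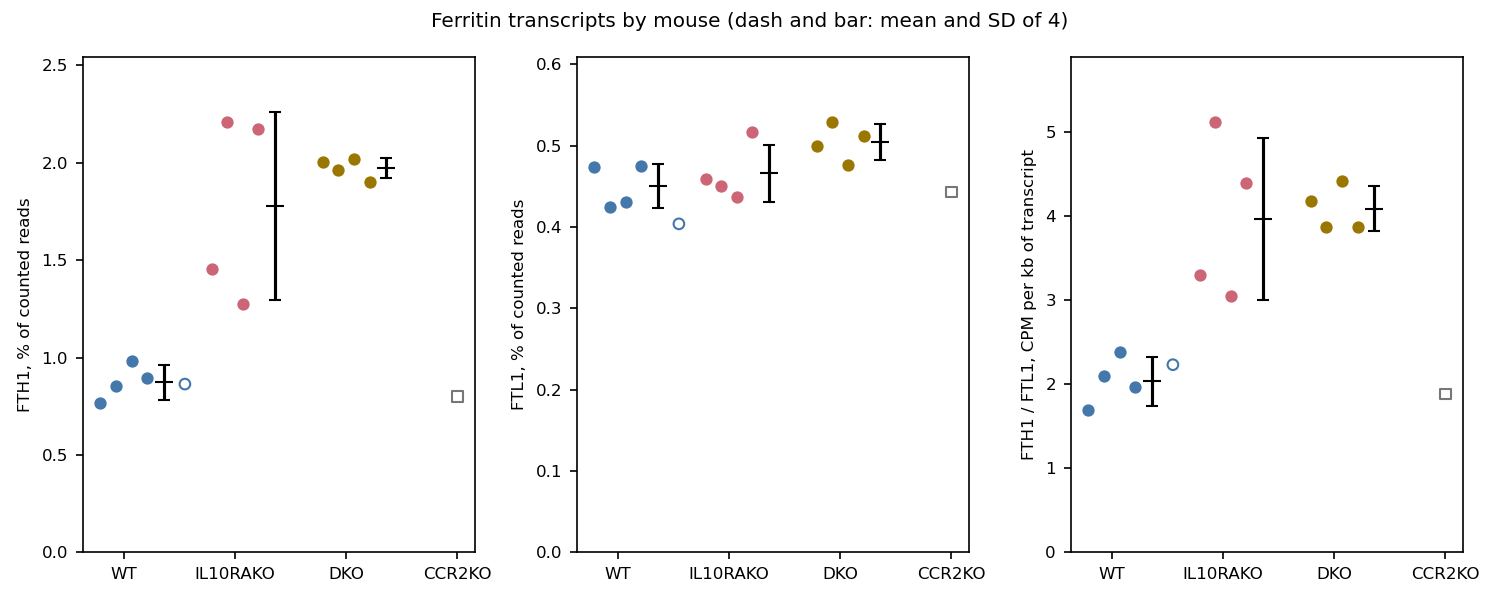
FTH1 (left) and FTL1 (middle) as percent of all counted reads, and the ratio of FTH1 to FTL1 in CPM per kb of main transcript (right), with 1 point per mouse and the mean and SD of the 4 tested mice beside each group. Open symbols are WT mouse 11 and the CCR2KO mouse. The FTH1 share was 0.768% to 0.983% in WT and at least 1.28% in the knockouts, and the ratio was 1.69 to 2.38 in WT and at least 3.05 in the knockouts.

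SLC40A1, the iron exporter ferroportin, measured 15.0, 32.6, 63.2 and 32.7 CPM in WT. It measured 7.72, 5.48, 11.0 and 9.31 CPM in IL10RAKO, and 5.52, 10.7, 12.2 and 21.6 CPM in DKO. The IL10RAKO mice all lay under the lowest WT mouse, but DKO mouse 14 lay above WT mouse 4. The log2 fold change was -2.10 (SE 0.437, adjusted p = 0.00442 by edgeR) in IL10RAKO and -1.52 (SE 0.427, adjusted p = 0.0230) in DKO. WT mouse 10 was the highest of all, and without it the DKO difference was -1.10 and no longer passed (adjusted p = 0.0831). The DKO call was also lost without DKO mouse 3 (adjusted p = 0.0580), mouse 9 (0.0698) or mouse 12 (0.0563). WT mouse 11 measured 10.3 CPM, within the IL10RAKO range, and with it among the WT mice the DKO difference was -1.30 (adjusted p = 0.101), whereas the IL10RAKO difference kept passing. The CCR2KO mouse measured 48.7 CPM.

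CP, the ferroxidase, measured 25.2, 28, 42.0 and 28.3 CPM in WT, 13.0, 11.8, 30.2 and 29.5 CPM in IL10RAKO, and 15.1, 26.1, 25.4 and 49.0 CPM in DKO. IL10RAKO mice 1 and 2 lay under all WT mice, and mice 7 and 8 within them. Neither difference passed (log2 fold change -0.55, SE 0.368, adjusted p = 0.355, and -0.10, SE 0.366, adjusted p = 0.890). CP overlaps HPS3 on the other strand, and whether strand was used in counting is not given in the sources used here.

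CD163, the hemoglobin scavenger receptor and a marker of resident tissue macrophages, showed the largest difference of the 10 genes. It measured 77.1, 85.1, 77.8 and 159 CPM in WT, that is 1452 to 2386 reads. In IL10RAKO it measured 2.57, 0.872, 8.29 and 3.76 CPM (14 to 164 reads), and in DKO 1.38, 1.25, 2.53 and 0.840 CPM (17 to 36 reads). The highest knockout mouse lay far under the lowest WT mouse. The log2 fold change was -4.66 (SE 0.537, adjusted p = 4.81e-05 by edgeR) in IL10RAKO and -6.08 (SE 0.586, adjusted p = 8.32e-06) in DKO. DKO was lower than IL10RAKO by a log2 fold change of -1.41 (SE 0.536, unadjusted p = 0.0195, adjusted p = 1.00), with overlapping groups. IL10RAKO mouse 7, the highest of the knockout mice, weighed on these sizes. Without it the log2 fold change was -5.38 in IL10RAKO against WT and -0.68 in DKO against IL10RAKO, and without any 1 mouse these ranged from -5.38 to -4.34 and from -1.77 to -0.68. WT mouse 11 measured 36.1 CPM, under the other WT mice and above every knockout mouse, and the CCR2KO mouse measured 68.9 CPM.

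HMOX1, which opens the heme ring, measured 180, 279, 231 and 319 CPM in WT. It ranged most widely in IL10RAKO, at 71.0, 287, 176 and 301 CPM, so that mice 2 and 8 lay within the WT range and mice 1 and 7 under every WT mouse. In DKO it measured 86.1, 167, 158 and 116 CPM, all under the lowest WT mouse. The log2 fold change was -0.27 (SE 0.357, adjusted p = 0.662) in IL10RAKO and -0.93 (SE 0.361, adjusted p = 0.0890) in DKO, and neither passed edgeR's test. Of 20 alternatives, 4 brought the DKO difference past the threshold, among them DESeq2 (adjusted p = 0.0350) and leaving out IL10RAKO mouse 1 (0.0204). The CCR2KO mouse, at 123 CPM, also lay under the WT mice, and with 1 mouse there is no test.

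BLVRB, which reduces flavins and some biliverdin isomers, measured 72.3, 77.8, 93.8 and 103 CPM in WT. It measured 96.1, 134, 90.1 and 126 CPM in IL10RAKO, which overlapped WT, and 143, 135, 119 and 137 CPM in DKO, where every mouse lay above WT. Only the DKO difference passed (0.62, SE 0.169, adjusted p = 0.0189 by edgeR, against 0.36, SE 0.169, adjusted p = 0.169). The difference between the knockouts did not pass (0.26, 95% confidence interval -0.10 to 0.62). BLVRA, the reductase that follows HMOX1 in heme breakdown (named here after its values were seen), averaged 41.5 ± 9.46 CPM in WT, 44.4 ± 4.83 in IL10RAKO mice and 41.9 ± 4.69 in DKO mice (SD, n = 4 each) and did not pass in either.

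SLC11A1, a phagosomal metal transporter known for its role in resistance to intracellular bacteria, measured 271, 252, 384 and 313 CPM in WT, 462, 502, 454 and 552 CPM in IL10RAKO, and 355, 505, 419 and 512 CPM in DKO. C57BL/6 mice are known to carry an amino acid substitution that disables this protein, so its transcript level here is not a measure of transport. All IL10RAKO mice lay above WT, while DKO mouse 3 lay under WT mouse 10. The log2 fold change was 0.69 (SE 0.169, adjusted p = 0.0123 by edgeR) and 0.55 (SE 0.169, adjusted p = 0.0348). With library totals in place of TMM scaling neither passed (0.37, adjusted p = 0.104, and 0.29, adjusted p = 0.193). Under that scaling the median of all genes lay at -0.38 and -0.32, and relative to the median SLC11A1 was higher by 0.75 and 0.61, against 0.76 and 0.62 under TMM. The DKO call was lost in 6 of the 12 fits that left out 1 mouse, with adjusted p from 0.0537 (without DKO mouse 12) to 0.106 (without DKO mouse 9), the others being DKO mouse 14 and WT mice 4, 5 and 13.

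TFRC and SLC11A2, which import transferrin iron and release it from the endosome, gave no call. TFRC measured 9.60, 30.7, 19.9 and 43.0 CPM in WT, 18.8, 29.3, 23.3 and 17.6 CPM in IL10RAKO, and 16.1, 18.2, 30.2 and 24.3 CPM in DKO. The WT mice alone covered the range of all knockout mice. The log2 fold changes of TFRC were -0.21 (SE 0.360, adjusted p = 0.744) and -0.22 (SE 0.360, adjusted p = 0.731), and the sign of each turned in at least 1 of the fits that left out 1 mouse. SLC11A2 measured 32.2, 35.1, 47.1 and 50.2 CPM in WT, 47.0, 48.0, 41.1 and 52.4 CPM in IL10RAKO, and 37.4, 53.4, 43.9 and 47.9 CPM in DKO. Its differences from WT were 0.20 (SE 0.180, adjusted p = 0.515 by edgeR) and 0.15 (SE 0.180, adjusted p = 0.612). With library totals, which moved all genes, they were -0.13 and -0.11. Relative to the median of all genes they were 0.25 and 0.21 under that scaling, against 0.27 and 0.22 under TMM. SLC11A2 overlaps the gene Gm5475 on the other strand.

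**Figure D3:**
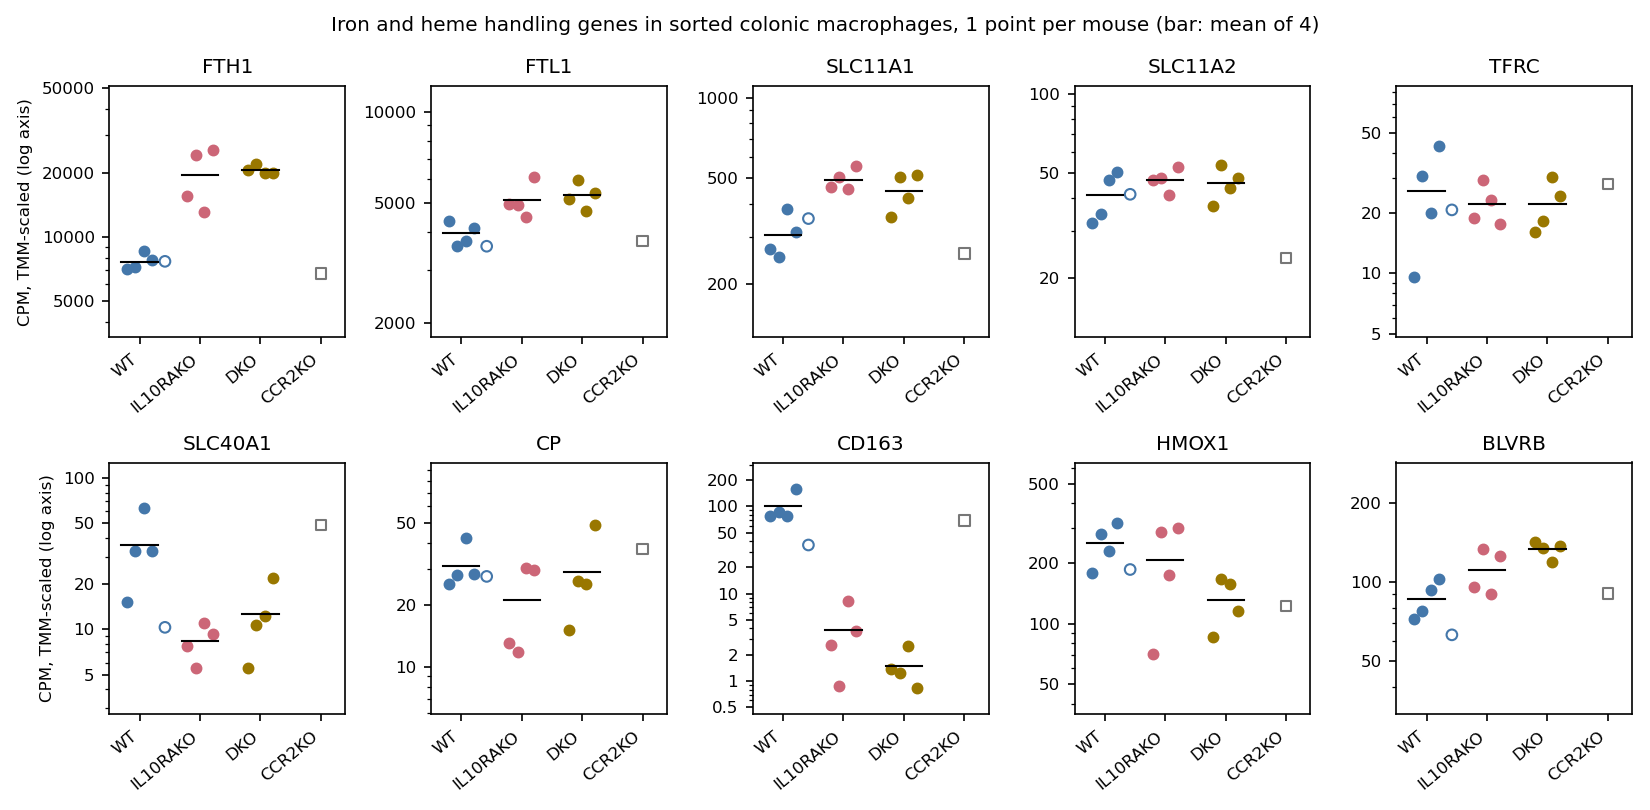
Level of each of the 10 genes in CPM (log axis) in every mouse, by genotype, with 1 point per mouse and a bar at the mean of the 4 tested mice. The open circle is WT mouse 11 and the open square the CCR2KO mouse. FTH1 and CD163 separate WT from both knockouts without overlap, SLC40A1 overlaps in DKO, and TFRC and SLC11A2 overlap in both.

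Per kb of main transcript, the order of the mean levels in WT was FTH1 (8246 CPM per kb), FTL1 (4092), HMOX1 (161), SLC11A1 (132), BLVRB (84.3), CD163 (22.6), SLC11A2 (13.6), SLC40A1 (10.6), CP (7.54) and TFRC (5.28). The ferritin chains stood clear of the rest in every group. Neighbours from SLC11A2 to TFRC differed by no more than about the larger of their SDs, as did HMOX1 and SLC11A1, and these do not differ beyond their spread. In both knockouts the last places were taken by SLC40A1 (2.48 CPM per kb in IL10RAKO mice and 3.71 in DKO mice) and CD163 (0.880 and 0.340), and SLC11A1 (213 and 193) took the third place from HMOX1 (133 and 84.1).

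Across the 12 tested libraries the genes with the pattern most like each of the 4 called members with the largest changes were found by Pearson's r of log2 CPM. These correlations describe 12 libraries of 3 genotypes, and how far they follow the difference between genotypes was not tested. For CD163 they were FOLR2 (r = 0.983), FCNA (0.978) and CBR2 (0.977), for FTH1 AA467197 (0.990), ESD (0.989) and PROCR (0.985), for SLC40A1 TNS2 (0.964), P2RY6 (0.949) and UACA (0.943), and for SLC11A1 CSF3R (0.943), ZMYND15 (0.936) and NPC2 (0.935). Among the members themselves, FTH1 ran with BLVRB (r = 0.873) and FTL1 (0.871) and against CD163 (-0.950), and SLC40A1 ran with CD163 (0.763) and CP (0.744). The r of HMOX1 with the other members was at most 0.514 in size (n = 12 libraries each).

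Beyond the 10 members, 49 other genes of iron and heme metabolism were listed, of which 41 passed the filter. In IL10RAKO 5 of the 41 rose and 0 fell, and in DKO 6 rose and 7 fell, beside 15.8% and 18.5% of all genes called. The split in IL10RAKO depended on the processing, with 6 higher and 2 lower with DESeq2. It was 5 higher and 7 lower under library totals, where the median of all genes lay at -0.38. In DKO against IL10RAKO 0 of the 41 passed edgeR's test, beside 0.0457% of all genes. At an unadjusted p under 0.05 the count was 3 of 41, beside 2.95% of all genes. The median log2 fold change of the 41 genes was 0.06 in IL10RAKO mice and 0.03 in DKO mice.

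The 5 genes that rose in IL10RAKO also rose in DKO. HP, the hemoglobin binding protein haptoglobin, whose complex with hemoglobin is the ligand of CD163, measured 16.8, 5.69, 12.0 and 7.92 CPM in WT, 202, 319, 40.1 and 328 CPM in IL10RAKO, and 198, 230, 203 and 191 CPM in DKO. Every knockout mouse lay above WT, and IL10RAKO mouse 7 stood under the others. This mouse also had the lowest FTH1 and the highest CD163 and SLC40A1 of its group. The log2 fold change of HP was 4.38 (SE 0.534, adjusted p = 7.64e-05 by edgeR) and 4.27 (SE 0.531, adjusted p = 7.11e-05), opposite in direction to that of the CD163 transcript. Whether the levels of HP and CD163 are linked was not tested. FBXL5, the iron sensing subunit of the ubiquitin ligase that degrades IREB2, averaged 82.1 ± 11.2 CPM in WT, 245 ± 126 in IL10RAKO mice and 242 ± 27.9 in DKO mice (adjusted p = 0.00264 and 0.00245). ALAS1, the enzyme of the first step of heme synthesis, averaged 96.9 ± 14.6, 318 ± 142 and 352 ± 41.8 CPM (adjusted p = 4.03e-04 and 1.88e-04). NFE2L2, which encodes the oxidative stress factor NRF2, averaged 411 ± 43.8, 882 ± 121 and 861 ± 168 CPM (adjusted p = 4.21e-04 and 4.65e-04). ISCU, the scaffold on which iron-sulfur clusters are built, averaged 69.6 ± 10.3, 121 ± 14.4 and 109 ± 17.7 CPM (adjusted p = 0.00426 and 0.0128).

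Another 8 genes passed in DKO and not in IL10RAKO, and for none of them did the difference between the knockouts pass. The lack of a call in IL10RAKO depended on the processing for 7 of the 8. With DESeq2, SLC39A14 was called higher there and STEAP3 and UROS lower. With library totals STEAP3 and UROS were called lower, as were TRF, HFE, SPIC and PPOX, which DESeq2 did not call. Library totals put the median log2 fold change of all genes at -0.38 in IL10RAKO, and these lower calls include that common shift. BACH1 was called in IL10RAKO under neither. TRF, the iron carrier transferrin, averaged 854 ± 75.5 CPM in WT, 681 ± 178 in IL10RAKO mice and 391 ± 43.4 in DKO mice, with a log2 fold change of -1.13 in DKO (SE 0.192, adjusted p = 8.91e-04 by edgeR). BACH1, the heme-regulated repressor of HMOX1 and the ferritin genes, averaged 64.4 ± 9.89, 60.0 ± 8.71 and 39.1 ± 8.19 CPM (log2 fold change -0.72 in DKO, adjusted p = 0.0148). SPIC, a transcription factor of iron-recycling macrophages, averaged 18.6 ± 2.90, 12.7 ± 3.50 and 10.4 ± 1.75 CPM (-0.84, adjusted p = 0.0199). HFE, which binds the transferrin receptor, fell by 0.73 on the log2 scale (adjusted p = 0.00885), and the endosomal iron reductase STEAP3 fell by 1.60 from a WT mean of 3.97 CPM (adjusted p = 0.0370). The heme synthesis enzymes UROS (-1.11, adjusted p = 0.00670) and PPOX (-0.68, adjusted p = 0.0186) were lower, and the metal importer SLC39A14 was higher (1.13, adjusted p = 0.0239). Several of these DKO calls were lost in fits that left out 1 mouse, though their signs did not turn. STEAP3 was lost without DKO mouse 3, 9 or 12 or WT mouse 4, 10 or 13 (adjusted p from 0.0538 to 0.0976) and without the filter on low counts (0.0693). SPIC was lost without DKO mouse 3, 12 or 14 or WT mouse 5 (0.0517 to 0.0587), and SLC39A14 without DKO mouse 9, 12 or 14 or WT mouse 13 (0.0516 to 0.0725). BACH1 (0.0506) and PPOX (0.0636) were lost without DKO mouse 14, and ISCU in DKO (0.0530) without DKO mouse 9. With library totals the DKO calls of SLC39A14 (0.0621) and ISCU (0.0633) were lost.

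The counts by role that follow leave out the 10 members, of which FTH1 (storage) and SLC40A1 (export) passed in both knockouts. The 1 other export gene tested was HEPH, at 0, 0, 5.76 and 0.0666 CPM in WT. By role, 0 of 3 tested genes of iron storage and its turnover and 0 of 1 of iron export and its control passed against WT in either knockout. These counts are small and stand beside 15.8% of all genes called in IL10RAKO and 18.5% in DKO, so they are a description and set no role apart. Of 9 genes of iron uptake 0 passed in IL10RAKO, and 1 rose and 3 fell in DKO. Of 9 sensors and regulators 2 rose in IL10RAKO, and 2 rose and 2 fell in DKO. Of 7 genes of heme uptake, transport and breakdown 1 rose (HP) in each knockout. Of 12 genes of mitochondrial iron and heme synthesis 2 rose in IL10RAKO, and 2 rose and 2 fell in DKO. The iron regulatory proteins that bind the hairpins shown above gave no call. ACO1 averaged 65.3 ± 19.7, 64.7 ± 11.8 and 76.8 ± 16.1 CPM and IREB2 19.2 ± 4.89, 19.2 ± 5.28 and 20.6 ± 4.60 CPM in WT, IL10RAKO and DKO.

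HMOX1, FTH1 and FTL1 are also textbook targets of NRF2, so a list of 9 other NRF2-driven antioxidant genes was set beside them. Of the 9 genes 6 rose and 0 fell in IL10RAKO, and 7 rose and 1 fell in DKO, beside 8.70% of all genes higher and 7.10% lower in IL10RAKO and 9.23% and 9.22% in DKO. With library totals the counts were 4 higher and 1 lower (NQO1) in IL10RAKO and 6 and 1 in DKO, and DESeq2 gave 6 and 1 (NQO1) in IL10RAKO. SLC7A11, the cystine importer, measured 11.9, 24.4, 13.2 and 30.2 CPM in WT, 165, 377, 165 and 259 CPM in IL10RAKO, and 317, 400, 415 and 292 CPM in DKO. The lowest knockout mouse lay above the highest WT mouse, and the log2 fold change was 3.60 (SE 0.350, adjusted p = 9.33e-06 by edgeR) and 4.16 (SE 0.358, adjusted p = 3.08e-06). TXNRD1 (2.21 and 2.25), SRXN1 (2.19 and 2.32) and GSR (2.08 and 2.44), enzymes that reduce thioredoxin, peroxiredoxins and glutathione, rose on the log2 scale in both. PRDX1 (0.68 and 1.06) and G6PDX (0.79 and 1.03) rose less, and GCLM passed in DKO (0.74, adjusted p = 0.0247) but not in IL10RAKO (0.33, adjusted p = 0.320). With library totals PRDX1 (adjusted p = 0.0944) and G6PDX (0.0613) were not called in IL10RAKO, nor GCLM (0.0871) in DKO. NQO1 was lower in DKO (-2.19, adjusted p = 0.0302), at 1.62, 1.06, 8.74 and 5.59 CPM in WT and 0.685 to 1.21 CPM in DKO, a range that WT mouse 5 shared. The DKO call of NQO1 was lost without any 1 of the DKO mice or without WT mouse 10 or 13 (adjusted p from 0.0525 to 0.124, with a log2 fold change of -1.56 without WT mouse 10), and that of GCLM without DKO mouse 9 or 12 or WT mouse 5 or 13 (0.0503 to 0.0808). FTH1 passed edgeR's test as higher in both knockouts, and FTL1 and HMOX1 passed it in neither. The part of NRF2 in any of these levels was not tested. With DESeq2 FTL1 passed as higher in both, and HMOX1 as lower in DKO.

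**Figure D4:**
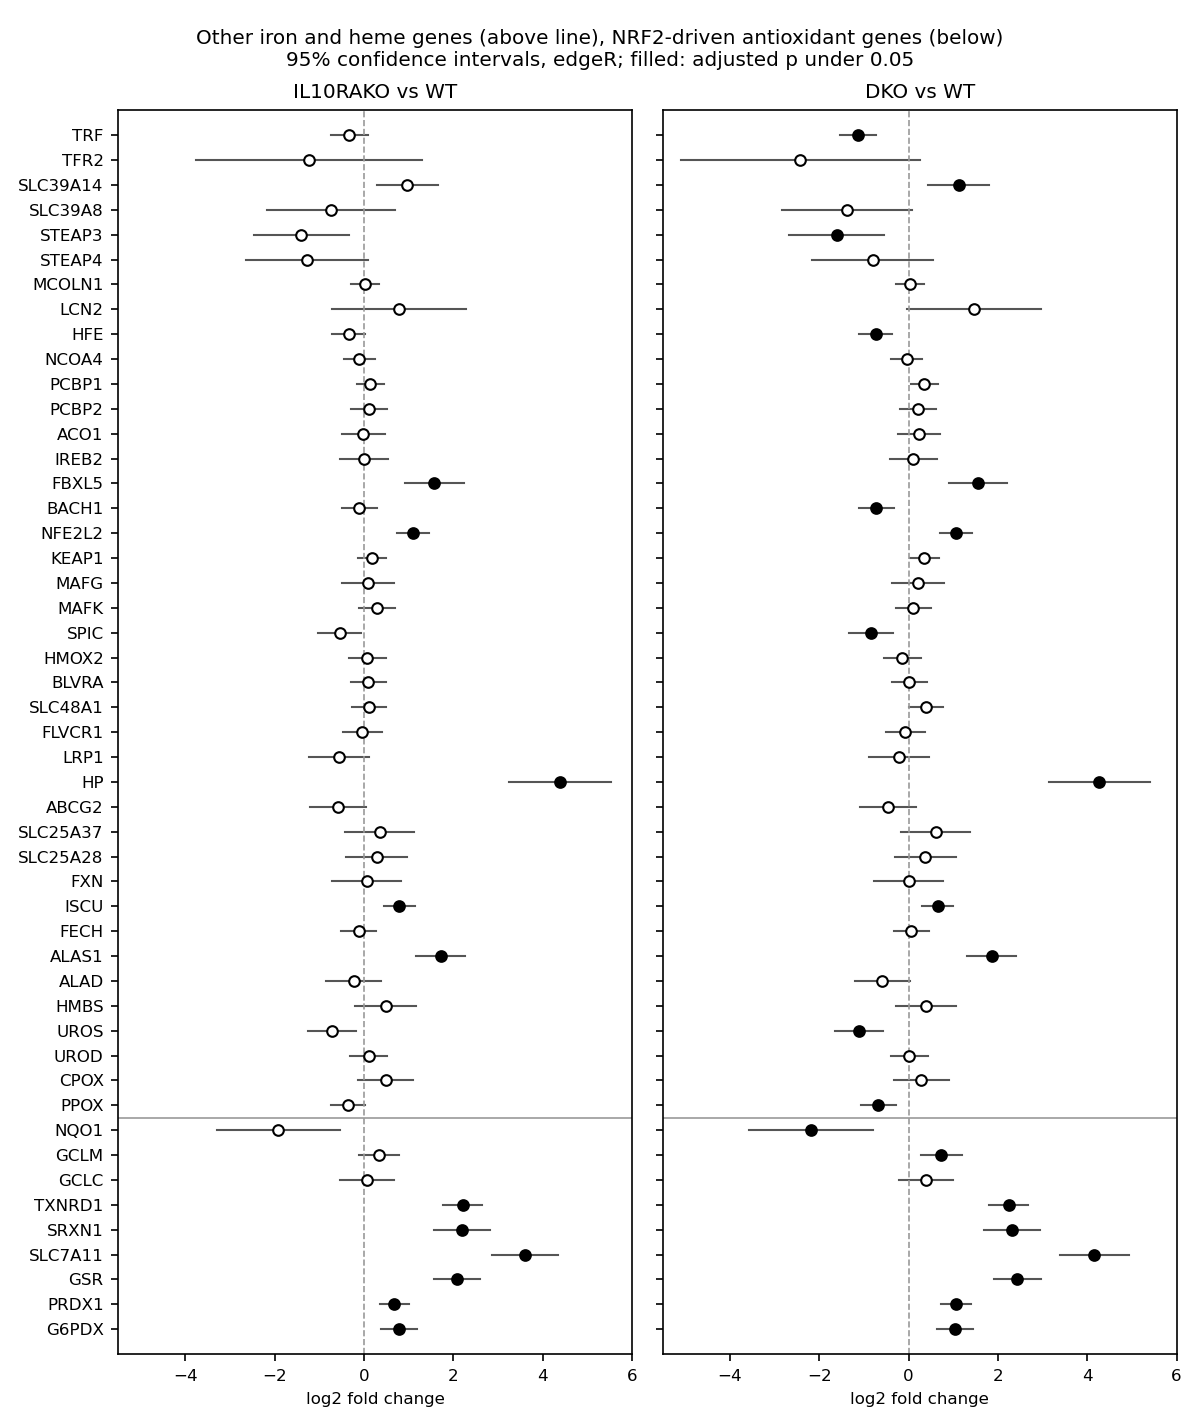
Log2 fold change (x axis) against WT, with 95% confidence intervals from edgeR, of the other tested iron and heme genes (above the line) and the 9 NRF2-driven antioxidant genes (below it), in IL10RAKO (left) and DKO (right). Filled points have an adjusted p under 0.05, and HEPH is not drawn because its interval was too wide for the axis. HP (4.38 and 4.27) and SLC7A11 (3.60 and 4.16) lie farthest to the right in both panels.

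Markers of other cell types moved with the genotype too. The 6 fibroblast genes, led by COL3A1, fell in both knockouts (6 of 6), from a summed 431 ± 155 CPM in WT to 28.1 ± 17.4 in IL10RAKO mice and 33 ± 23.7 in DKO mice. All 4 tested smooth muscle genes fell, from a summed 63.9 ± 54.3 CPM to 7.21 ± 3.05 and 6.27 ± 2.71, and 2 and 3 of 5 endothelial genes fell. The sort for CD45+ cells that carried CD64 and CD11b selects against fibroblasts, smooth muscle and endothelium. Their genes fell in the same direction as CD163 and SLC40A1, and their part in those differences was not tested. WT mice 4 and 10 had fibroblast sums of 294 and 301 CPM against 577 and 553 in mice 5 and 13, while their CD163 levels were 77.1 and 77.8 against 85.1 and 159 CPM and their SLC40A1 levels 15.0 and 63.2 against 32.6 and 32.7 CPM. WT mouse 11 had the lowest fibroblast sum of the WT mice, 263 CPM, and also their lowest CD163 (36.1 CPM) and SLC40A1 (10.3 CPM). The CCR2KO mouse had more COL3A1 (415 CPM) than any WT mouse, while its CD163 (68.9 CPM) lay under the tested WT mice and its SLC40A1 was 48.7 CPM. The epithelial sum varied widely within WT, at 26.3 to 1231 CPM, highest in mouse 10, which also had the highest SLC40A1 and NQO1. It was higher still in WT mouse 11 (3294 CPM), whose NQO1 was 3.22 CPM against 8.74 in mouse 10, and whose SLC40A1 was 10.3 CPM. Mouse 11 had 11670 genes with a read against 13485 to 15402 in the other WT mice.

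Of the dendritic cell list, led by CCR7, 3 of 5 genes rose in IL10RAKO mice and 2 of 5 in DKO mice, with sums of 559 ± 383, 1622 ± 202 and 1418 ± 410 CPM in WT, IL10RAKO and DKO. Of the 6 tested genes of Ly6C+ monocytes and neutrophils, cells the sort removes, 3 rose in each knockout (LY6C2, S100A8 and S100A9). CCR2, the deleted gene, was the 1 that fell in DKO. LY6C2 averaged 6.50, 109 and 81.8 CPM in WT, IL10RAKO and DKO, and S100A8 0.183, 12.4 and 15.1 CPM. The mast cell sum was 24.1 ± 11.2, 84.3 ± 11.4 and 104 ± 20.1 CPM, nearly all of it KIT. The part of these lists in the differences of FTH1, SLC11A1 and HP was not tested. The hemoglobin genes HBB-BS, HBB-BT, HBA-A1 and HBA-A2 had 0 reads in all 12 libraries, and the erythroid sum was at most 5.30 CPM, led by ALAS2. How reads that match several places were counted is not given, so these 0 counts do not show that red blood cell RNA was absent.

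**Figure D5:**
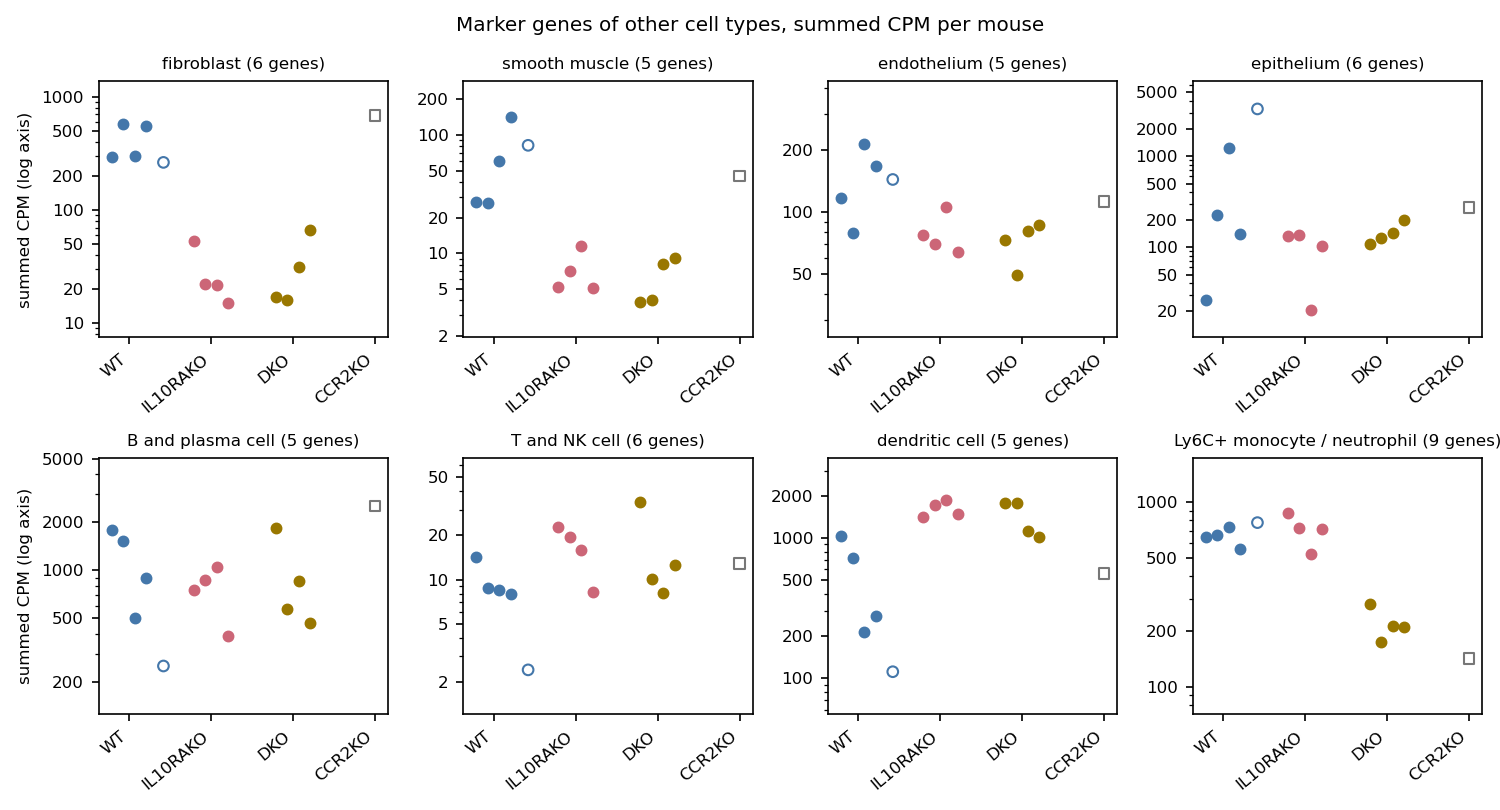
Summed CPM (log axis) of marker genes of 8 other cell types in every mouse, by genotype, with 1 point per mouse. The open circle is WT mouse 11 and the open square the CCR2KO mouse. The fibroblast and smooth muscle sums of all WT mice lie above those of all IL10RAKO and DKO mice. The monocyte and neutrophil sum counts CCR2 itself, a mean of 593 of 652 CPM in WT. It is low in DKO and CCR2KO, which lack CCR2, so it does not show fewer of these cells.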

How the data were processed

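RNA of sorted macrophages from 14 mice was sequenced in paired-end libraries. The deposited table holds whole-number counts of reads per gene, which the authors made with bcl2fastq 2.20 and STAR 2.5.1b on mouse build mm10, and whose gene names they harmonized afterwards. The annotation, the strand setting and the counting of reads that match several places are not given in the sources used here. The authors' second deposited table holds normalized values (edgeR 3.34.0 pseudocounts, treated as a score). It was used only to see which 12 libraries it includes. The number of unmapped sample columns was 0.

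Counts were scaled by TMM and tested with edgeR 4.0.16 (quasi-likelihood, 1 fit over 12 libraries, no covariate) in R 4.3.3. Genes with enough reads by edgeR's filter (minimum count 10) were kept, 13136 of 24982. Calls are Benjamini-Hochberg adjusted p under 0.05 over all of them. Alternatives were DESeq2 1.42.0, other scalings, filters and sample sets, and each mouse left out. The fits were tested on simulated data. The lowest chi-square per degree of freedom between libraries of 1 group was 30.0, so none was a repeat of another. Each library is 1 mouse, so the spread is between mice. Per-length levels and UTR searches used GENCODE vM21, and figures Python 3.11.15 with matplotlib 3.10.9. The ratio of ferritin chains was tested by an exact permutation test (scipy).

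The 10 genes and all gene lists were chosen with earlier results of these data known. Named from the lists were the genes called against WT in either knockout, and ACO1, IREB2, BACH1 and NFE2L2 whatever their values. Genes of like pattern were the 3 with the highest r for each of the 4 called members with the largest change in IL10RAKO. Glial and T and NK cell markers were also counted: of 5 T and NK genes 0 were called in IL10RAKO and 1 rose in DKO, of 1 glial gene 0 were called in IL10RAKO and 1 fell in DKO, of 6 epithelial genes 0 and 1 fell, and of 5 B and plasma cell genes 0 were called in either.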

Additional observations from a re-analysis of the deposited data

Results flagged for a closer look

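CD163 in WT mouse 13 stood apart from its group, at 159 CPM against 77.1 to 85.1 CPM in the other 3 tested WT mice. It was 1 of 30 groups of 4 mice examined, and chance alone puts about 1 in 20 groups past this limit. CD163 was called lower in both knockouts without this mouse too.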

How the results depend on the processing

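FTH1 and CD163 were called against WT in both knockouts under all 20 alternatives, and SLC40A1 in IL10RAKO under all 20. Against WT, the number of the 10 genes called in IL10RAKO was 4 in every fit without 1 mouse. In DKO it ranged from 3 to 6, with 3 without DKO mouse 9 or mouse 12. The SLC40A1 call in DKO held under 15 of 20 alternatives, SLC11A1 under 12 and BLVRB under 19 (lost with library totals, adjusted p = 0.120). In DKO FTL1 passed under 5 of 20 alternatives and HMOX1 under 4, and in IL10RAKO FTL1 passed with DESeq2 (adjusted p = 0.0459). Between the knockouts 0 of the 10 genes were called under any alternative, while the number of all genes called was 24 with DESeq2 and ranged from 4 to 10 without 1 mouse (10 without IL10RAKO mouse 2). Of the 41 other iron and heme genes, 8 were called in IL10RAKO with DESeq2 (6 higher and 2 lower) and 12 with library totals (5 higher and 7 lower), against 5. These genes, the antioxidant list and the ferritin ratio were put through the alternatives after their values were seen. The cause of each change was not tested.

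Signs turned only for differences that had not passed the test. With library totals SLC11A2 was -0.13 in IL10RAKO and -0.11 in DKO against WT and 0.020 between the knockouts. That scaling moved all genes, to a median of -0.38 in IL10RAKO and -0.32 in DKO against WT. Relative to these medians SLC11A2 was 0.25 and 0.21, so its sign did not turn. Under the same scaling ACO1 was -0.019 and IREB2 -0.14 in DKO, and IREB2 -0.31 in IL10RAKO, each above the median of its comparison. Between the knockouts TFRC was 0.0048 with DESeq2, 0.0043 with RLE size factors, 0.063 with library totals and 0.018 with only those 2 genotypes. In IL10RAKO IREB2 was -0.0023 with DESeq2, -0.0024 with RLE, -0.043 with at least 10 reads in every library and -0.30 with WT mouse 11, which gave -0.20 in DKO, and ACO1 was 0.0053 without the filter. Without 1 mouse, log2 fold changes in IL10RAKO ranged from -0.50 to 0.015 for HMOX1, -0.49 to 0.15 for TFRC, -0.12 to 0.21 for ACO1 and -0.16 to 0.15 for IREB2. In DKO they ranged from -0.48 to 0.12 for CP, -0.49 to 0.14 for TFRC and -0.057 to 0.25 for IREB2. Between the knockouts they ranged from -0.065 to 0.22 for FTH1, -0.011 to 0.14 for FTL1, -0.13 to 0.040 for SLC11A2 and -0.19 to 0.15 for TFRC. No paired analysis was possible because the genotypes hold different mice and the labels give them no shared number. Depth limits the low levels, since CD163 rested on 14 to 164 reads in the knockouts. With 4 mice a group, the confidence intervals of SLC40A1, HMOX1, TFRC, CP and CD163 were wide.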
